A study of Cricetulus griseus with 9 samples.

Results

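Transcripts of 5 genes that serve protein folding and disposal in the endoplasmic reticulum (ER) are described here: Hspa5, Calr, Manf, Sdf2l1 and Sel1l. They were picked by name, with the group differences of these same libraries already known, so their values below are a description and carry no test. All 5 were found among the 6753 genes of the deposited table. The cells were MI5-4, a Chinese hamster ovary line. In the group EV, which the labels call hexokinase null, 3 libraries came from cells with an empty vector. In the group WTHK2, 3 libraries came from cells labelled as expressing wild-type hexokinase 2 (HK2), the enzyme that phosphorylates glucose at the start of glycolysis. In the group LAC, 3 libraries came from empty-vector cells that were given 10 mM sodium lactate for 24 h. All cells were grown in a medium with 1000 mg/L glucose and 10% serum. The series compared gene expression with HK2 and with lactate against hexokinase-null cells. The sources used here do not give the promoter or species of the HK2 construct, or say whether a cell group is a single clone.

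The ER is where secreted and membrane proteins fold. When unfolded proteins gather in it, the unfolded protein response (UPR) is switched on by the membrane sensors IRE1 (gene Ern1), PERK (Eif2ak3) and ATF6: IRE1 splices the mRNA of the transcription factor XBP1, ATF6 is cut to release a transcription factor, and PERK slows translation while favouring the factor ATF4. Hspa5 codes for BiP (GRP78), the Hsp70 chaperone of the ER lumen, which also binds the sensors. Calr codes for calreticulin, a lectin chaperone that holds newly made glycoproteins and stores calcium. Manf codes for a small secreted and lumenal protein that binds BiP, and Sdf2l1 for a lumenal protein that works with BiP and its co-chaperone ERdj3 (Dnajb11). Sel1l codes for the membrane adaptor of the HRD1 (Syvn1) ubiquitin ligase in ER-associated degradation, the path that removes misfolded proteins. It is no chaperone, and it lay below EV in WTHK2 and LAC where the other 4 lay above, so it is named apart from these 4 lumenal factors below. Between WTHK2 and LAC its difference had the same sign as theirs.

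Levels are normalized CPM, in which the authors divided read counts by a scaled library size. That size was estimated here from the steps between values, at 18050959 to 26238659 reads, and was not checked against counts. CPM is not corrected for gene length, so levels are compared between libraries and not between genes. Hk2, the targeted gene, stood between 64.9 and 68.7 CPM in the EV libraries, between 63.9 and 66.6 in those labelled WTHK2 and between 64.7 and 70.4 in LAC, so the transcript did not follow the label and each direction given for WTHK2 rests on the label. The 5 markers fixed for this line (Vim, LGALS1, S100a6, Anxa2 and Fn1) were all listed, and none of the 7 leukocyte or 5 epithelial markers was. The line markers moved too: 4 were higher and Fn1 lower in WTHK2 (median 0.31), 3 were higher and Fn1 lower in LAC, and 3 were higher in WTHK2 than in LAC (1 without LAC replicate 3). Their summed level was 5528 to 5657 CPM in the EV libraries, 6556 to 6654 in WTHK2 and 5783 to 5996 in LAC, and the part of this in the results below was not tested. The LAC differences of Vim and Anxa2 changed sign under quantile normalization. The median log2 difference of 4 mitochondrially encoded transcripts from the EV mean was 0.40 to 0.73 in WTHK2 and 0.45 to 0.80 in LAC, highest in the first replicate of each. For 44 genes coding for very long proteins, listed after the data were seen, it was -0.29 to -0.16 in WTHK2 and -0.32 to -0.22 in LAC. The labels do not say that replicates were separate cultures, so a p-value here measures the spread among these samples only, which may be technical. In bulk libraries, fewer cells of a kind and less RNA per cell cannot be told apart.

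Hspa5 stood at 1425, 1372 and 1428 CPM in the 3 EV libraries. In the libraries labelled WTHK2 it stood at 2030.3, 1834 and 1854 CPM, and in LAC at 1523, 1460.1 and 1426. The BiP transcript was thus highest in all 3 WTHK2 libraries, while the LAC and EV libraries overlapped. Means with SD over 3 libraries were 1408 ± 31.7 CPM for EV, 1906 ± 108 for WTHK2 and 1469.7 ± 49.1 for LAC. On the scale of log2(CPM + 1), used for all differences below, Hspa5 was above EV by 0.44 (SE 0.038) in WTHK2 and by 0.06 in LAC, with a 95% interval of -0.02 to 0.14 for the latter. That LAC difference changed sign under quantile normalization (-0.055).

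Calr stood at 1575, 1574 and 1647 CPM in EV, at 2138, 1970.0 and 2020.5 in WTHK2, and at 1843, 1711 and 1782 in LAC. Calreticulin mRNA was therefore ordered EV, LAC, WTHK2, with no overlap between neighbours in that order. The means were 1599 ± 42.0, 1778 ± 65.9 and 2043 ± 86.2 CPM in that order (SD, n = 3). Calr was above EV by 0.35 (SE 0.036) in WTHK2 and by 0.15 in LAC. The LAC difference was 0 under quantile normalization, which sets a value by its rank in the library.

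Manf stood at 138, 138 and 144 CPM in EV, at 201, 189 and 196 in WTHK2, and at 183, 167 and 170.5 in LAC. Again the 3 groups did not overlap, and LAC lay between EV and WTHK2. Group means ran from 140.15 ± 3.45 CPM in EV through 173 ± 8.16 in LAC to 195 ± 6.26 in WTHK2 (SD, n = 3). The log2 difference from EV was 0.47 (SE 0.043) in WTHK2 and 0.30 (SE 0.043) in LAC, the highest LAC value of the 5 genes.

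Sdf2l1 stood at 73.6, 77.0 and 73.0 CPM in EV, at 104, 104 and 105 in WTHK2, and at 85.6, 86.4 and 81.9 in LAC. The order was the same as for Calr and Manf, without overlap. In WTHK2 the replicates of this gene differed by less than counting error: the coefficient of variation was 0.580%, where the reads estimated for those libraries (1880 to 2736) give 2.08%. Its means were 74.5 ± 2.13 CPM in EV, 84.6 ± 2.44 in LAC and 105 ± 0.607 in WTHK2 (SD, n = 3), and its log2 difference from EV was 0.48 (SE 0.047) in WTHK2 and 0.18 in LAC.

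Sel1l stood at 74.1, 69.8 and 74.5 CPM in EV, at 53.4, 59.99 and 66.3 in WTHK2, and at 38.1, 54.8 and 46.9 in LAC. Every library of the other 2 groups lay below every EV library, and WTHK2 overlapped with LAC through LAC replicate 2. From EV through WTHK2 to LAC the means were 72.8 ± 2.61, 59.9 ± 6.47 and 46.6 ± 8.37 CPM (SD, n = 3). The log2 difference from EV was -0.28 (SE 0.093) in WTHK2 and -0.65 (SE 0.093) in LAC, and that of WTHK2 from LAC was 0.37 (SE 0.093), or 0.23 without LAC replicate 1. The transcript varied more between replicates than the other 4: the coefficient of variation was 10.8% in WTHK2 and 18.0% in LAC, against counting errors of 2.74% and 3.25% (an estimated 796 to 1574 reads in those 6 libraries). In the same 6 libraries the genes for very long proteins were lower as well (36 of 44 called in WTHK2 and 41 of 44 in LAC). Of all genes, 25.4% and 27.1% were called lower. The list was written after the data were seen, so nothing is read from these counts. The part of these genes in the Sel1l values was not tested.

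**Figure D1:**
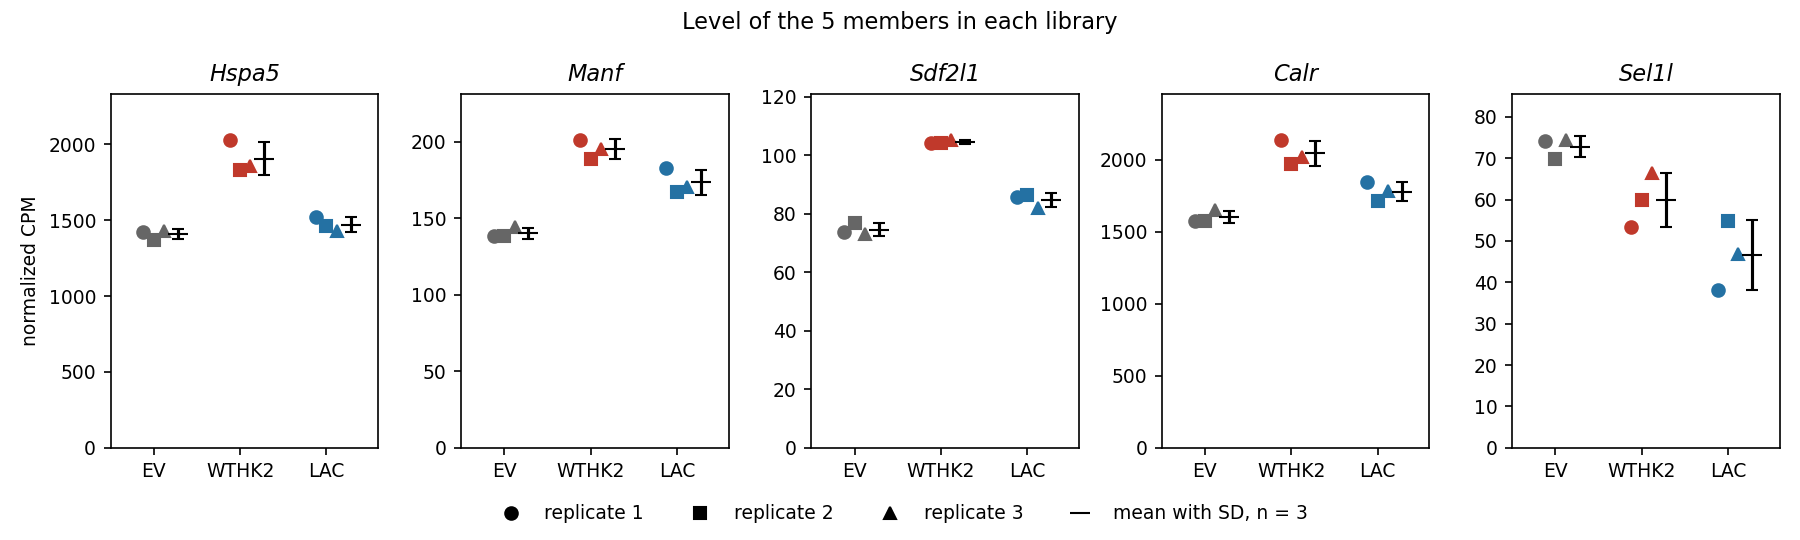
Normalized CPM (y axis, from 0) of the 5 genes in each library, by group (x axis), with the symbol giving the replicate and the black bars the mean with SD of 3 libraries. Hspa5, Manf, Sdf2l1 and Calr are highest in WTHK2, and Sel1l is lowest in LAC, down to 38.1 CPM in LAC replicate 1.

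Set against all genes, 4 of the 5 were above EV in every WTHK2 library and Sel1l was below, where 26.6% of all genes lay above and 30.5% below without overlap. In LAC, 3 of the 5 lay above EV without overlap and Sel1l below, against 27.0% and 30.8% of all genes. Between WTHK2 and LAC, 4 of the 5 were higher in WTHK2 without overlap, against 14.5% of all genes. Since the genes were picked with these comparisons known, nothing is read from those counts. In rank of log2 difference among 6753 genes, WTHK2 against EV placed Sdf2l1 56 from the top, Manf 61, Hspa5 80 and Calr 178. LAC against EV placed Sel1l 49 from the bottom, Manf 224 from the top, Sdf2l1 1103, Calr 1385 and Hspa5 2543. Both comparisons share the EV libraries.

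**Figure D2:**
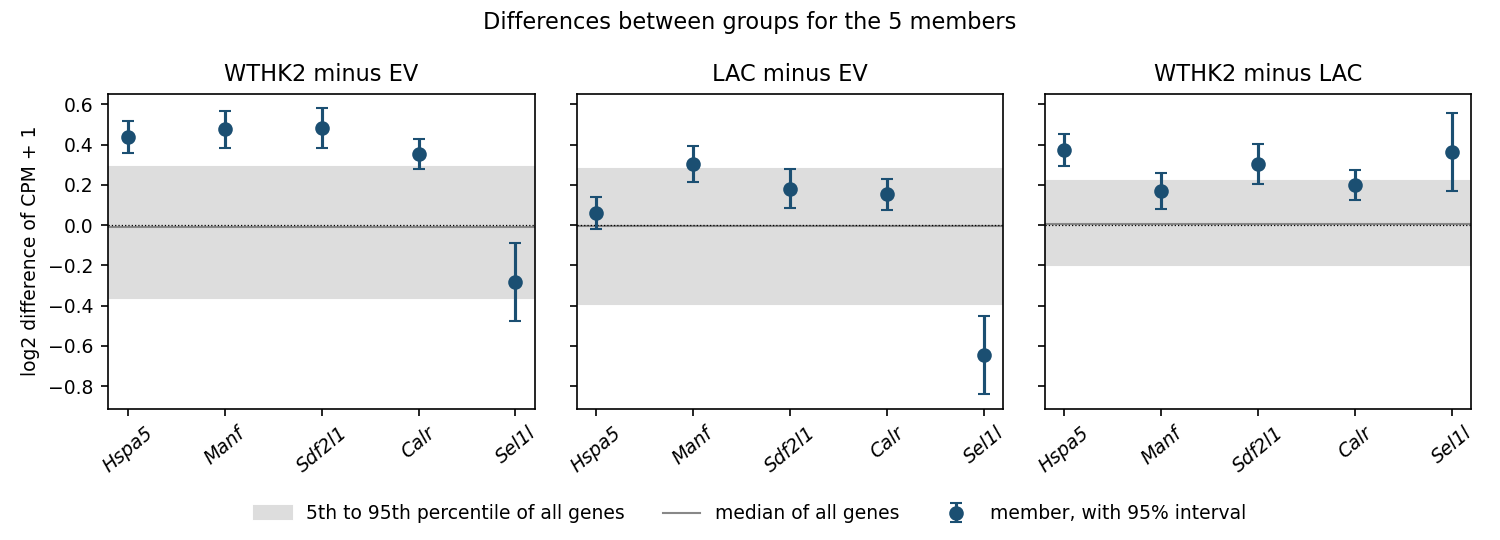
Log2 difference of CPM + 1 (y axis) for the 5 genes in each of the 3 comparisons (panels), with 95% intervals from limma, over a grey band from the 5th to the 95th percentile of all 6753 genes. Hspa5 is at 0.44 in WTHK2 minus EV and at 0.06 in LAC minus EV, and Sel1l is at -0.65 in LAC minus EV.

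Ratios of 2 transcripts within a library do not depend on a scaling factor applied to the whole library. The log2 ratio of Hspa5 to Manf, set to a mean of 0 in EV, was -0.04 ± 0.045 in WTHK2 and -0.25 ± 0.038 in LAC (SD, n = 3). All 3 LAC libraries (-0.27 to -0.20) lay below all WTHK2 libraries (-0.08 to 0.01) and all EV libraries (-0.02 to 0.04). Relative to Manf, the BiP transcript was thus lower in LAC than in either other group. For Hspa5 to Calr the values were 0.08 ± 0.025 in WTHK2 and -0.09 ± 0.046 in LAC, on opposite sides of EV. For Manf to Calr they were 0.12 ± 0.020 and 0.15 ± 0.026, which overlap. Calr to Sel1l was above EV in both, by 0.64 ± 0.20 in WTHK2 and 0.81 ± 0.32 in LAC, and Hspa5 to Sel1l by 0.72 ± 0.23 and 0.72 ± 0.30.

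**Figure D3:**
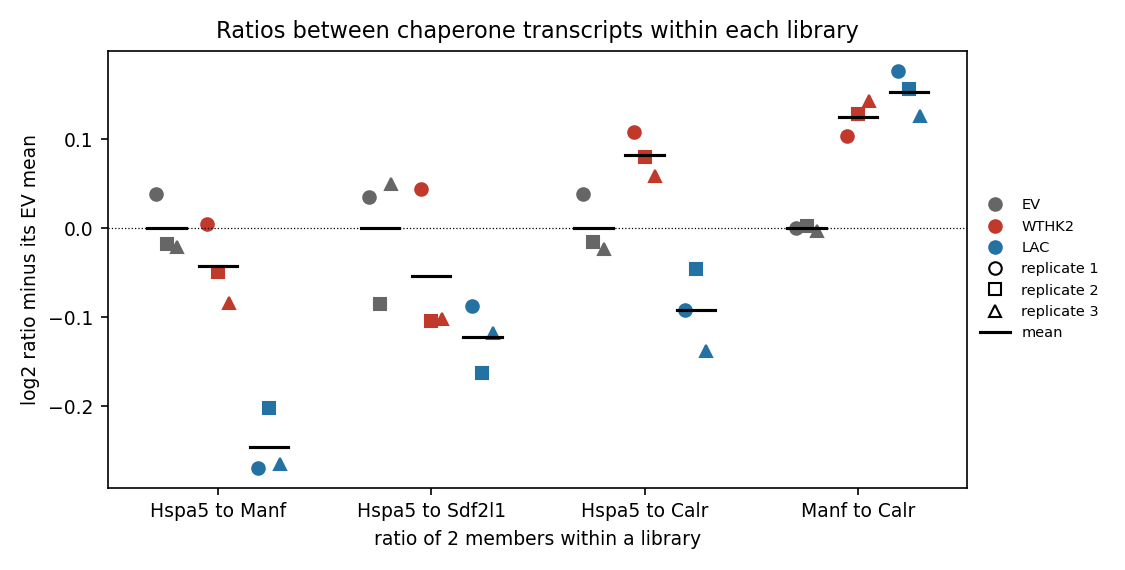
Log2 ratio between 2 of the lumenal factors within each library, minus the mean ratio in EV (y axis), for 4 pairs (x axis), coloured by group, with symbols for replicates and black lines for means. The LAC points of Hspa5 to Manf sit between -0.27 and -0.20, below all others of that pair.

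Across the 9 libraries the 4 lumenal factors followed each other, with Pearson correlations of log2(CPM + 1) between 0.84 (Hspa5 with Manf) and 0.97 (Manf with Calr). These points share the group differences. After subtracting group means, Manf and Calr still correlated at 0.93 and Hspa5 with Calr at 0.79, whereas Sdf2l1 was at -0.31 with Calr and at -0.06 with Hspa5. Sel1l was at -0.71 with both Manf and Calr on that scale (n = 9 libraries in each case, given as descriptions). Replicate 1 was the highest of its group for Hspa5, Manf and Calr and the lowest for Sel1l, in WTHK2 and in LAC alike. The mitochondrially encoded transcripts were also highest in those 2 libraries (0.73 and 0.80 above the EV mean). In a fit that leaves out both, the WTHK2 differences from EV were 0.39 for Hspa5, 0.32 for Calr, 0.45 for Manf, 0.49 for Sdf2l1 and -0.20 for Sel1l. The LAC differences were then 0.04, 0.13, 0.27, 0.17 and -0.51 in the same order.

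By correlation over the 9 libraries, the other genes most like Calr were Tnfsf9, Pdia6 and Erp29, with r from 0.987 to 0.988. Pdia6 is a protein disulfide isomerase of the ER and Erp29 a lumenal folding factor, so 2 of these 3 come from the same compartment. Most like Manf were S100a6, Timp1 and Dvl1 (0.993 to 0.995), most like Sdf2l1 were Plac8, Tns2 and Ephx1 (0.982 to 0.991), and most like Hspa5 were Cdsn, Wrap73 and Ints11 (0.982 to 0.990). The nearest to Sel1l were Kank2, Sf3b3 and Urgcp (0.977 to 0.984), of which Sf3b3 is a splicing factor. For the mean of the 5 standardized genes they were Ints11, Ube2j2, Fdps, Ephx1 and Tnfrsf4. Wrap73, Ints11, Dvl1, Ube2j2 and Tnfrsf4 lie within 8 listed genes of Ssu72 in the order of the assembly CriGri-PICRH-1.0, and their listed neighbours were mostly higher in WTHK2 as well. The median log2 difference from EV was 0.60 over the 10 listed neighbours of Ube2j2 and 0.25 over the 14 of Wrap73, the highest and lowest of these 5 medians. The 14 neighbours of each of the 5 described genes had medians between -0.07 and 0.05 in that comparison, and between -0.11 and 0.16 in LAC against EV.

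The rest of the pathway was read from 10 gene lists, which were chosen with earlier results of these data known. Counts by list are therefore a description and not an independent test of the pathway. Genes were tested with limma over all 6753 genes, with Benjamini-Hochberg adjusted p-values and a threshold of 0.05. In WTHK2 against EV, 46.4% of all genes were called, 21.0% higher and 25.4% lower. In LAC against EV, 49.5% were called (22.4% and 27.1%), and in WTHK2 against LAC 16.1% (8.37% and 7.76%). The median difference of all genes was -0.01, 0.00 and 0.00 in the 3 comparisons. Genes called higher made up 45.3% of the calls in both comparisons with EV, and 57.3% (WTHK2) and 58.6% (LAC) after rescaling libraries to a common median. A difference between the 2 comparisons with EV was tested only where a value of WTHK2 against LAC is given.

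**Figure D4:**
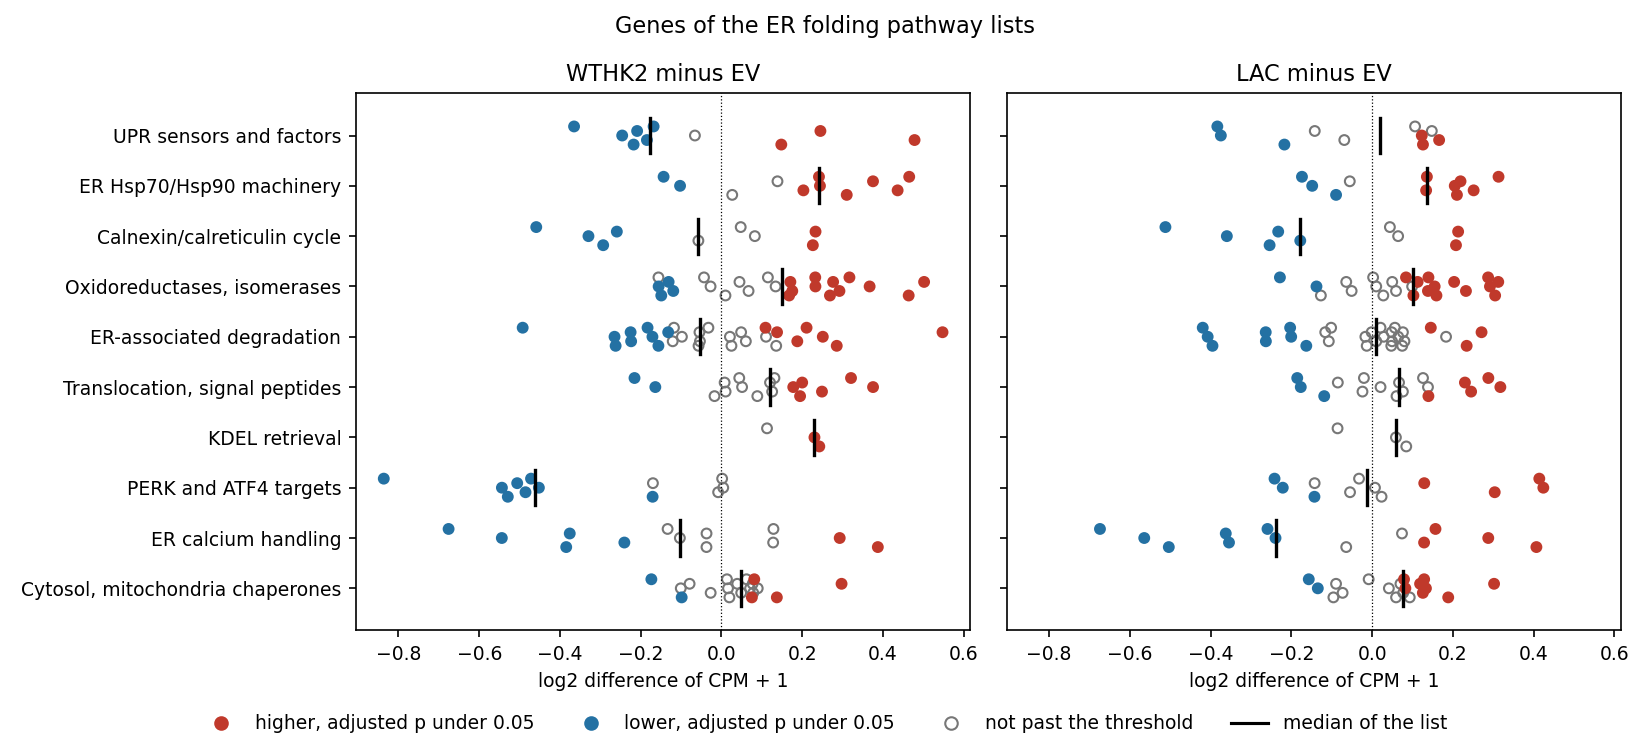
Log2 difference of CPM + 1 (x axis) of each gene of the 10 lists (y axis) in WTHK2 minus EV and LAC minus EV, filled where the adjusted p is under 0.05, with a black line at the median of each list. The list labelled PERK and ATF4 targets has a median of -0.46 in WTHK2 minus EV and of -0.01 in LAC minus EV.

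Among the sensors and transcription factors of the UPR, Xbp1 went with the lumenal chaperones and Atf6 against them. Xbp1 rose from 35.9 ± 0.801 to 50.5 ± 1.69 CPM in WTHK2 (0.48, SE 0.061, adjusted p = 4.54e-06) and was at 39.9 ± 1.03 in LAC (0.15, adjusted p = 0.0512, a value that passed without LAC replicate 2, without the variance trend and under either other scaling), a difference of 0.33 between the 2 groups (adjusted p = 0.000768). These are gene-level values and do not show splicing; Ern1 was not in the table. Atf6 fell from 54.9 ± 2.62 CPM to 42.5 ± 2.65 in WTHK2 (-0.37, adjusted p = 0.000198) and to 41.9 ± 2.504 in LAC (-0.38, adjusted p = 0.000114). The proteases that cut ATF6, MBTPS1 and MBTPS2, were lower in LAC too (-0.22, adjusted p = 0.000144, and -0.37, adjusted p = 0.000669). MBTPS2 was also lower in WTHK2 (-0.25, adjusted p = 0.0154), a call lost without EV replicate 1 (0.0725) or WTHK2 replicate 1 (0.0612). Atf6b, the ATF6 paralog, rose in WTHK2 (0.25, adjusted p = 0.000214) and was at 0.13 in LAC (adjusted p = 0.0263). The LAC call was lost without EV replicate 1 (0.168) or 2 (0.0735), LAC replicate 1 (0.0839) or 3 (0.0932), or the variance trend (0.0730). Atf4 moved in opposite directions, at -0.17 in WTHK2 and 0.17 in LAC against EV (adjusted p = 0.00189 for both), and its WTHK2 minus LAC difference was -0.33 (adjusted p = 4.87e-06). Eif2ak3 was lower in WTHK2 (-0.21, adjusted p = 0.0170), a call lost without EV replicate 1 (adjusted p = 0.0898), WTHK2 replicate 2 (0.0519) or WTHK2 replicate 3 (0.0943), and stood at -0.14 in LAC (adjusted p = 0.0903, which passed without LAC replicate 2). Of the 10 listed genes, 3 were higher and 6 lower in WTHK2 (median -0.18), and 3 higher and 3 lower in LAC (median 0.02). The 3 higher in LAC became 1 without EV replicate 1, EV replicate 2, LAC replicate 1 or LAC replicate 3, and 5 after rescaling libraries to a common median.

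Genes listed for the Hsp70 and Hsp90 machinery of the ER, not all of them lumenal, were more often higher than lower in both groups. Of 11 listed genes of the ER Hsp70 and Hsp90 machinery, 7 were higher and 2 lower in WTHK2 (median 0.24), and 7 higher and 3 lower in LAC (median 0.14). The 2 lower in WTHK2 became 0 under either other scaling, and 0 or 1 without any 1 of the EV or WTHK2 libraries. The 7 higher in LAC became 4 without EV replicate 1 or LAC replicate 1, and the 3 lower became 1 without LAC replicate 3. Hsp90b1, which codes for GRP94, the Hsp90 of the ER, rose from 1472 ± 47.8 to 1912 ± 131 CPM in WTHK2 (0.38, SE 0.042, adjusted p = 9.11e-07). In LAC it was at 1617 ± 63.6 CPM (0.14, adjusted p = 0.0115), a call lost without EV replicate 2 (0.0779) or LAC replicate 1 (0.0632), without the variance trend (0.0646) and under quantile normalization (0.02, adjusted p = 0.686). Hyou1, the large Hsp70 relative and nucleotide exchange factor of BiP, did not move with Hspa5 against EV. It was at 0.03 in WTHK2 (adjusted p = 0.546) and at -0.09 in LAC (adjusted p = 0.0360). The LAC call was lost without any 1 EV library (adjusted p 0.0830 to 0.0939), without LAC replicate 3 (0.158), after rescaling to a common median (0.276) and without the variance trend (0.122). Hyou1 was 0.12 higher in WTHK2 than in LAC (adjusted p = 0.0238). That call was lost without WTHK2 replicate 1 (0.0579) or 3 (0.107), LAC replicate 3 (0.126) or the variance trend (0.119), and in a fit of only the libraries compared (0.0707). Dnajb11, the co-chaperone that binds Sdf2l1, rose in both, by 0.24 in WTHK2 (adjusted p = 0.000169) and 0.20 in LAC (adjusted p = 0.000753). Creld2, an ER stress-inducible lumenal protein, rose by 0.44 (adjusted p = 1.07e-06) and 0.22 (adjusted p = 0.00123), and Creld1 by 0.31 and 0.21.

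Sdf2, the paralog of Sdf2l1, was near the lower end of the table at 20.8 ± 1.26 CPM in EV. It was at 24.8 ± 2.53 in WTHK2 (0.24, adjusted p = 0.0401) and 25.01 ± 2.91 in LAC (0.25, adjusted p = 0.0312). Both calls were lost without EV replicate 1 (adjusted p = 0.107 and 0.0871) or EV replicate 3 (0.128 and 0.107). The WTHK2 call was also lost without WTHK2 replicate 1 (0.144) or 3 (0.117) and under quantile normalization (0.0654), and the LAC call without LAC replicate 1 (0.179) or 3 (0.0599). Dnajc3, a BiP co-chaperone that also inhibits PERK, did not pass in WTHK2 (0.14, adjusted p = 0.0920) or LAC (-0.06, adjusted p = 0.506).

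The calnexin and calreticulin cycle, in which glycoproteins bind lectin chaperones until their glucose residues are trimmed, did not follow Calr as a whole. Of 9 listed genes other than Calr, 2 were higher and 4 lower in WTHK2 (median -0.06), and 2 higher and 5 lower in LAC (median -0.18). The share called higher was 22.2% in each, near the 21.0% (WTHK2) and 22.4% (LAC) of all genes. The share called lower was 44.4% in WTHK2, against 25.4% of all genes, and 55.6% in LAC, against 27.1%. The 2 higher in LAC became 1 without LAC replicate 1. Pdia3 (ERp57), the disulfide isomerase that works with calreticulin, rose from 636 ± 8.29 to 748 ± 22.9 CPM in WTHK2 (0.23, adjusted p = 1.54e-05) and was at 665 ± 15.8 in LAC (0.06, adjusted p = 0.115). Canx, which codes for the membrane-bound counterpart calnexin, was at -0.06 in WTHK2 (adjusted p = 0.317) and fell in LAC from 308 ± 3.79 to 262 ± 18.4 CPM (-0.23, adjusted p = 0.000353). Ganab, the catalytic subunit of glucosidase II, fell by 0.33 in WTHK2 (adjusted p = 4.01e-06) and 0.18 in LAC (adjusted p = 0.00160), while its partner subunit Prkcsh rose in LAC (0.21, adjusted p = 0.000446). Uggt1, which returns glucose to unfolded glycoproteins, fell in WTHK2 (-0.29) and LAC (-0.25). Mlec, a lectin for glucosylated glycans, fell in both as well (-0.46 and -0.51), and so did the mannosidase Man1b1 (-0.26 and -0.36).

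The list of ER oxidoreductases and prolyl isomerases, which form disulfides and turn proline bonds, also held the folding factors Serpinh1 and Erp29. Genes on it were more often higher than lower. Of 24 listed genes, 12 were higher and 4 lower in WTHK2 (median 0.15), and 13 higher and 2 lower in LAC (median 0.10). The 4 lower in WTHK2 became 2 after rescaling libraries to a common median or without WTHK2 replicate 2. The 13 higher in LAC became 8 without EV replicate 2, and the 2 lower became 1 without LAC replicate 1. Serpinh1, the collagen chaperone HSP47, rose most by adjusted p, from 318 ± 9.46 to 451 ± 3.69 CPM in WTHK2 (0.50, SE 0.034, adjusted p = 2.18e-09), and by 0.16 in LAC (adjusted p = 0.000753), with a WTHK2 minus LAC difference of 0.34 (adjusted p = 4.79e-07). Erp29 rose by 0.46 in WTHK2 (adjusted p = 7.51e-07) and 0.23 in LAC (adjusted p = 0.000978), and Fkbp10 by 0.37 and 0.15. Pdia4 rose by 0.32 in WTHK2 (adjusted p = 4.79e-06) and was 0.21 higher there than in LAC (adjusted p = 0.000971). Prdx4, a peroxiredoxin of the ER, rose in LAC from 186 ± 0.902 to 231 ± 9.20 CPM (0.31, adjusted p = 4.60e-06) and in WTHK2 by 0.17 (adjusted p = 0.00154). The isomerases Fkbp11 and Ppib rose in both, by 0.29 and 0.27 in WTHK2 and 0.30 and 0.29 in LAC. P4hb, the classical protein disulfide isomerase, was at -0.03 in WTHK2 (adjusted p = 0.506) and 0.08 in LAC (adjusted p = 0.0323), a call lost without EV replicate 1 (0.0961), EV replicate 2 (0.146) or LAC replicate 1 (0.0822), under quantile normalization (0.254) and without the variance trend (0.118).

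ER-associated degradation, the pathway of Sel1l, had genes called in both directions. Of 29 listed genes other than Sel1l, 7 were higher and 9 lower in WTHK2 (median -0.05), and 3 higher and 8 lower in LAC (median 0.01). The shares were 24.1% higher and 31.0% lower in WTHK2, against 21.0% and 25.4% of all genes, and 10.3% and 27.6% in LAC, against 22.4% and 27.1%. Except for the lower share of higher genes in LAC, they were near those of all genes. Rescaling to a common median gave 10 higher and 7 lower in WTHK2 and 6 and 6 in LAC. The ligase that binds Sel1l did not follow it: Syvn1 was at 51.8 ± 3.75 CPM in EV, 57.0 ± 2.94 in WTHK2 (0.14, adjusted p = 0.0862) and 52.5 ± 1.95 in LAC (0.02, adjusted p = 0.809). Os9, a lectin that hands substrates to SEL1L, was at 0.05 and 0.07 (adjusted p = 0.358 and 0.150). Edem1 and Edem3, which trim mannose from misfolded glycoproteins, were lower like Sel1l. Edem3 fell from 199.71 ± 4.63 CPM to 166 ± 7.82 in WTHK2 (-0.26, adjusted p = 0.000265) and 151 ± 11.7 in LAC (-0.41, adjusted p = 3.73e-06), and Edem1 by 0.22 and 0.42. Nploc4, a cofactor of the extracting ATPase VCP, fell by 0.26 and 0.20, while Vcp itself rose in WTHK2 (0.14, adjusted p = 0.00193) and was at -0.02 in LAC. Aup1 and the ligase Rnf5 rose in both, by 0.25 and 0.19 in WTHK2 and by 0.23 and 0.27 in LAC. The ubiquitin-conjugating enzyme Ube2j2 had the largest rise of this list in WTHK2 (0.55, adjusted p = 2.80e-08) and lies near Ssu72 (median of its neighbours 0.60). Herpud1, a UPR target that joins the HRD1 complex, was at -0.17 in WTHK2 (adjusted p = 0.0182), a call lost without EV replicate 1 (0.0533), EV replicate 3 (0.0625) or WTHK2 replicate 1 (0.0740) and after rescaling to a common median (0.0581), and at 0.06 in LAC.

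Some genes that bring proteins into the ER were called higher. Of 17 listed genes of translocation and signal peptide cleavage, 6 were higher and 2 lower in WTHK2 (median 0.12), and 5 higher and 3 lower in LAC (median 0.07). The share called higher was 35.3% in WTHK2, against 21.0% of all genes, and 29.4% in LAC, against 22.4%. The 2 lower in WTHK2 became 1 without EV replicate 2 or WTHK2 replicate 1. The 3 lower in LAC became 1 without EV replicate 2 or LAC replicate 1, and under either other scaling. Ssr2 and Ssr4, subunits of the translocon-associated TRAP complex, rose by 0.38 and 0.32 in WTHK2 and by 0.29 and 0.32 in LAC, and Spcs1, of signal peptidase, by 0.19 and 0.23. Srpr, a subunit of the signal recognition particle receptor, rose in WTHK2 (0.20, adjusted p = 0.000539) and was at -0.02 in LAC. Of the 3 receptors that return KDEL-bearing chaperones such as BiP and calreticulin from the Golgi, 2 were higher in WTHK2 and 0 were called in LAC by limma. Kdelr2 rose in WTHK2 by 0.23 (adjusted p = 0.000482). Kdelr3 was at 0.24 (adjusted p = 0.0262), a call lost without EV replicate 1 (0.0950), EV replicate 2 (0.0548), WTHK2 replicate 2 (0.0651) or WTHK2 replicate 3 (0.149).

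In WTHK2 the PERK and ATF4 arm ran apart from the lumenal chaperones, and in LAC its genes were called in both directions. Of 12 genes listed for this arm, not all of them targets of PERK or ATF4, 0 were higher and 8 lower in WTHK2 (median -0.46). In LAC 4 were higher and 3 lower (median -0.01, which turns to 0.03 and 0.01 under the other scalings). The 3 lower in LAC became 1 without EV replicate 1 or EV replicate 2 and under either other scaling. Ddit3, which codes for the stress factor CHOP, rose in LAC from 30.5 ± 1.44 to 38.0 ± 3.11 CPM (0.30, adjusted p = 0.00261) and was at 27.0 ± 1.44 in WTHK2 (-0.17, adjusted p = 0.0720). Ppp1r15a (GADD34), which reverses the PERK block on translation, rose in LAC from 45.5 ± 1.83 to 61.5 ± 2.67 CPM (0.42, adjusted p = 2.13e-05) and was at -0.01 in WTHK2. Nupr1, a stress-induced chromatin protein, rose by 0.41 in LAC (adjusted p = 0.000461) and was at 0.00 in WTHK2. Other genes of the list were lower in LAC, among them Trib3 (-0.22, adjusted p = 0.0238) and Ppp1r15b (-0.14, adjusted p = 0.0301). Both of these calls were lost without EV replicate 1 (0.0841 and 0.132) or EV replicate 2 (0.0985 and 0.102). In each of those fits 1 gene of the list was still called lower in LAC, as was 1 at an adjusted p under 0.01. ASNS, asparagine synthetase, was at -0.84 in WTHK2 and 0.02 in LAC. Directly compared, 11 of the 12 were lower in WTHK2 than in LAC and 0 higher (median -0.41), with differences of -0.47 for Ddit3 (adjusted p = 0.000178), -0.43 for Ppp1r15a (adjusted p = 5.49e-05) and -0.86 for ASNS (adjusted p = 2.32e-07). All 5 described genes had higher means in WTHK2 than in LAC, by 0.37 for Hspa5, 0.30 for Sdf2l1, 0.20 for Calr, 0.17 for Manf and 0.37 for Sel1l, whose groups overlapped.

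**Figure D5:**
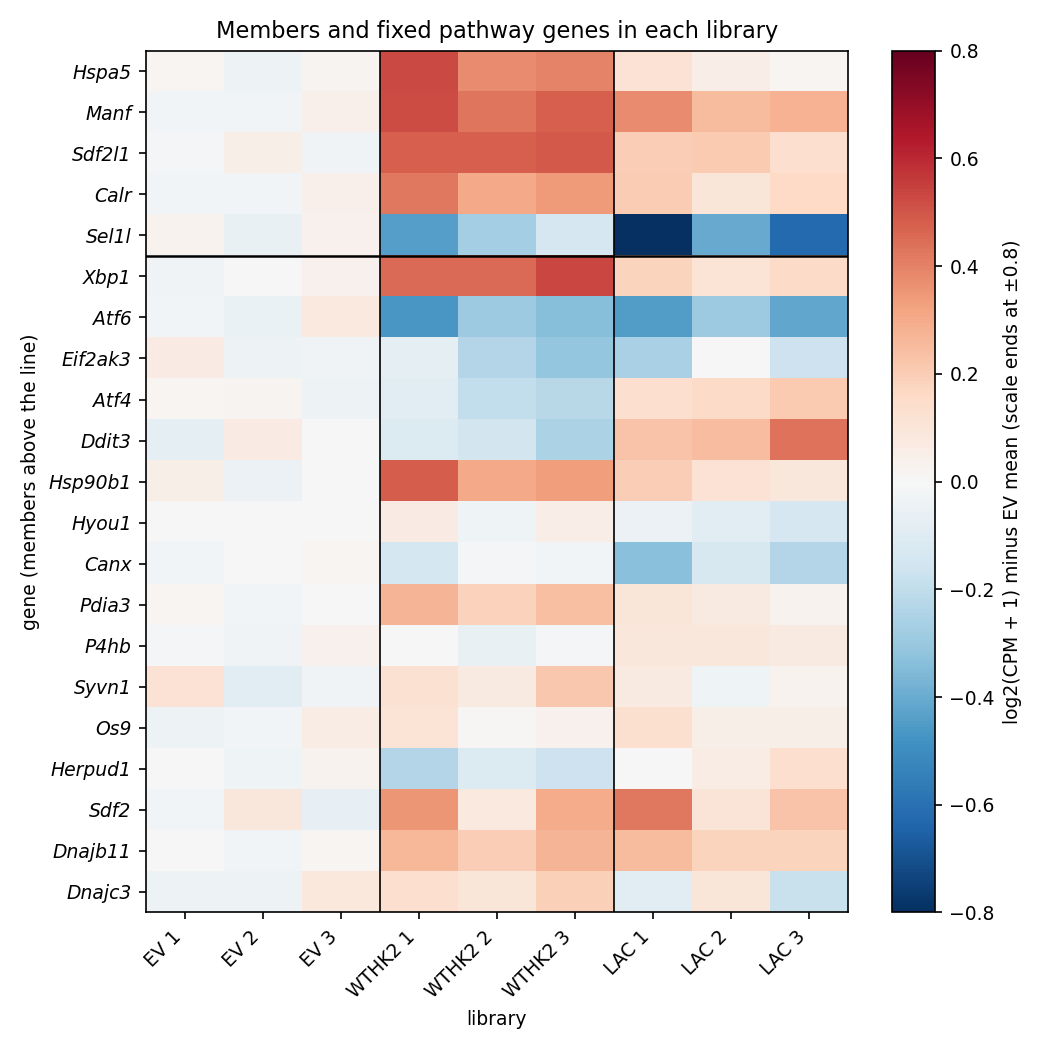
Log2(CPM + 1) minus the EV mean (colour, ending at ±0.8) of the 5 genes and of the fixed pathway genes (rows) in each library (columns), with Sel1l at -0.92 in LAC replicate 1 beyond the end of the scale. Xbp1 and Hsp90b1 are above 0 in all WTHK2 libraries, like the 4 lumenal factors, while Ddit3 is above 0 in all LAC libraries and below 0 in all WTHK2 libraries.

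Calcium handling genes of the ER, the other side of calreticulin's work, were more often lower. Of 13 listed genes, 2 were higher and 5 lower in WTHK2 (median -0.10), and 4 higher and 7 lower in LAC (median -0.24). The share called lower was 38.5% in WTHK2, against 25.4% of all genes, and 53.8% in LAC, against 27.1%. The share called higher was 15.4% in WTHK2, against 21.0%, and 30.8% in LAC, against 22.4%. The 2 higher in WTHK2 became 4 under either other scaling, and the 4 higher in LAC became 2 without EV replicate 1 or LAC replicate 1. Itpr2, a calcium release channel, fell from 79.4 ± 1.71 CPM to 49.4 ± 1.10 in WTHK2 (-0.68, adjusted p = 1.77e-07) and 49.6 ± 5.62 in LAC (-0.67, adjusted p = 5.20e-07). Stim1, the calcium sensor of the ER membrane, fell by 0.38 and 0.56, and Calu, a lumenal calcium-binding protein, by 0.54 and 0.50. Rcn3, of the same protein family as Calu, rose in both instead (0.39 and 0.41). Itpr2 codes for a very long protein. Genes of that kind, listed after the data were seen, were lower in the same libraries (medians -0.23 in WTHK2 and -0.28 in LAC). Their part in the fall of Itpr2 was not tested.

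The list for chaperones of the cytosol and mitochondria also held co-chaperones and the transcription factor gene Hsf1. Of its 19 genes, 4 were higher and 2 lower in WTHK2 (median 0.05), and 8 higher and 2 lower in LAC (median 0.08). The share called higher was 21.1% in WTHK2, against 21.0% of all genes, and 42.1% in LAC, against 22.4%. The 4 became 2 without any 1 of the EV or WTHK2 libraries and 9 after rescaling libraries to a common median, and the 2 lower became 1 without any EV library, WTHK2 replicate 1 or WTHK2 replicate 3. Hspb1, a small heat shock protein, rose by 0.30 in each (adjusted p = 0.000166 and 0.000129). Hsp90aa1, an inducible Hsp90 of the cytosol, fell by 0.17 in WTHK2 (adjusted p = 0.00104) and, by 0.13, in LAC (adjusted p = 0.00635), the latter call lost without LAC replicate 1 (0.0608). Hsf1, the heat shock transcription factor, rose by 0.14 and 0.19.

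Between WTHK2 and LAC, 3 of 11 genes of the Hsp70 and Hsp90 machinery were higher in WTHK2 and 0 lower. On the list of oxidoreductases and isomerases, 5 of 24 genes were higher and 4 lower. Those 4 became 0 without WTHK2 replicate 2 or LAC replicate 1. Of all genes, 8.37% were higher and 7.76% lower in this comparison. The counts of higher and lower genes were 1 and 2 of 10 for sensors, 2 and 2 of 9 for the calnexin cycle and 5 and 1 of 29 for degradation. They were 2 and 0 of 17 for translocation, 1 and 0 of 3 for KDEL receptors, 1 and 1 of 13 for calcium and 1 and 1 of 19 for the cytosolic and mitochondrial list. The shares for calcium (7.69% each way) were near those of all genes, so nothing is read from them. Leaving out single libraries moved each of these last 7 pairs of counts by more than 1.5 times: the 5 became 2 without LAC replicate 1, 8 without LAC replicate 2, and 3 without LAC replicate 3, WTHK2 replicate 2 or 3, or any 1 EV library. Counts of 0 at the adjusted threshold of limma were given for the Hsp70 and Hsp90 machinery, translocation, KDEL receptors and the PERK and ATF4 list. Each of them was also 0 at an unadjusted p under 0.05.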

How the data were processed

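RNA sequencing of mRNA libraries was made by the submitters from 9 samples, 3 in each of 3 groups. The deposited values are normalized CPM made by the authors. The submitters' processing notes name STAR 2.7.0a, edgeR 3.8, featureCounts 2.0.1, FastQC 0.11.8 and cutadapt 1.18. The build and annotation are not given in the sources used. The lowest gene mean was 20.4 CPM, so genes below the authors' table were not analysed here. Each library's values came in steps of 1 read (tolerance 0.01 reads), from which library sizes and reads per gene were estimated. No deposited counts were at hand to check these estimates, and a separate test of the low values did not accept them as recovered reads. They, and the counting errors from them, only describe depth, and no count test was run.

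The members and lists were chosen with earlier results of these data known. Values were put on log2(CPM + 1), with a pseudocount of 1 and a mean of at least 1 CPM required (0 genes removed). A single fit of the 9 libraries was made in R 4.3.3 (limma 3.58.1), with no covariates, a variance trend, two-sided tests and Benjamini-Hochberg adjustment over all 6753 genes; the fit was tested on simulated data. The 5 members were given no p. Named were the members, fixed pathway genes (16 of 19 listed), for each list and comparison up to 3 called genes with the smallest adjusted p, and the genes most correlated with the members. Where the rule gave more genes than a paragraph needed, the others were left to the counts. Older symbols were used for 2 genes. Neighbours were the 7 listed genes on each side, by symbol, on CriGri-PICRH-1.0 (91.0% of genes placed), which gave order only. The list of very long proteins, and the fit that leaves out replicate 1 of both WTHK2 and LAC, were added after the data were seen. Searches of promoters and protein ends that had been planned were not run. Tables and figures used Python 3.11.15, numpy 2.4.6, pandas 2.3.3 and matplotlib 3.10.9.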

Additional observations from a re-analysis of the deposited data

How the results depend on the processing

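The 5 members were compared under other pseudocounts (0.25 and 4), filters, scalings, variance models and sets of libraries. Many of the 300 member values under these alternatives could not differ from the reported ones. A difference is left as it is by the filters, the variance models and a block for the replicate number. It is also left as it is by a fit of only the libraries compared, or without a library of the third group. Of all 300, 298 kept the sign of the reported value. The other 2 were the LAC differences of Hspa5 (-0.055) and Calr (0) under quantile normalization. That scaling also gave 0.25 for Hspa5 and 0.21 for Calr in WTHK2 against EV, 0.30 for Hspa5 in WTHK2 against LAC, and -0.063 for Vim and -0.0054 for Anxa2 in LAC against EV, both positive in the reported fit; the cause was not tested. Rescaling to a common median gave Sdf2l1 differences of 0.52 (WTHK2) and 0.22 (LAC) from EV. Over all genes, an adjusted p under 0.01 left 941 higher in WTHK2 against EV, 998 higher in LAC against EV, and 281 higher and 260 lower in WTHK2 against LAC, where the reported counts were 1417, 1512, 565 and 524. Leaving out 1 library gave 333 to 650 higher and 329 to 629 lower genes in WTHK2 against LAC, with the lowest counts without WTHK2 replicate 3. With the replicate number as a block, 1558 genes were higher and 1875 lower in WTHK2 against EV, 1672 and 1937 in LAC against EV, and 732 and 682 in WTHK2 against LAC. The labels do not say what a number stands for. Deviations of same-numbered libraries correlated above 0.1 in 4 of 9 pairs (range -0.006 to 0.44; highest for replicate 1 of WTHK2 and LAC), and a library matched its own number best in 12 of 18 cases, a hint from the data that some libraries share more than a number. Since not every pair did so, the block was kept as an alternative. Among list counts under alternatives, 135 moved by more than 1.5 times and 1503 did not. Among values of other named genes, 132 lost a call with the sign kept and 44 gained one. Another 2 (Vim and Anxa2, above) turned sign with a call in either fit, and 4322 stayed on their side of the threshold. The unchanged list counts and gene values include those of the other filters, which removed no gene and so repeat the reported fit. With 3 libraries a group, Sel1l was the least precise member (SE 0.093). It had the fewest estimated reads, but its coefficients of variation in WTHK2 and LAC (10.8% and 18.0%) were above the counting errors (2.74% and 3.25%).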
